A study of Mus musculus and Homo sapiens with 43 samples.

Results

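The change in ribosome footprints after knockdown of Lars, the gene for cytosolic leucyl-tRNA synthetase, was examined gene by gene in 4T07 cells, a mouse mammary carcinoma line. The genes were all those of the authors' xtail table, a ribosome profiling result that holds 9851 lines. Of these, 18 carried a symbol that a spreadsheet had turned into a date and 3 were read-accounting lines of the counting program, so 9830 genes remained. Each gene has one footprint value, the log2 ratio of footprints in cells with a hairpin against Lars (shLars) over cells with the control hairpin (shC). A value of 1 stands for 2-fold more footprints after knockdown and a value of -1 for 2-fold fewer. The log2 change of mRNA for the same gene is given beside it for reference.

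All groups were 4T07 cells kept in DMEM with fetal bovine serum. Controls carried the hairpin shCtrl, and the knockdown lines carried shLars3 or shLars4, which are 2 different hairpins against Lars. The RNA-Seq libraries number 6, 2 for each of the 3 lines, while footprints have 1 pooled library whose labels name no hairpin. The deposited table gives one shLars and one shC condition, without saying whether shLars is 1 hairpin or both, whether the lines are clones, or how many footprint libraries stand behind each value. It holds no value per library, and for footprints neither a standard error nor a p-value. The spread between replicates and the sequencing depth are therefore unknown here, no footprint difference could be tested, and every footprint value is a description of the authors' estimate.

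A ribosome that is translating an mRNA shields a short stretch of it from nuclease, and sequencing those stretches counts the ribosomes on each mRNA. The number of footprints on a gene follows both how much mRNA the gene has and how many ribosomes each copy carries. Leucyl-tRNA synthetase attaches leucine to its tRNAs. When charged tRNA runs short, uncharged tRNA activates the kinase GCN2, which phosphorylates the initiation factor eIF2 and raises translation of the transcription factor ATF4, whose targets include amino acid synthesis and transport genes. The same synthetase has also been described as a leucine sensor upstream of mTORC1, the growth kinase complex that favours translation of mRNAs for ribosomal proteins.

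Footprint values were centred near 0, and most genes lay within a narrow band. These values compare genes with each other and hold no measure of total footprints per cell. A centre near 0 therefore does not show whether total translation changed. The median over the 9830 genes was -0.01 on the log2 scale, the middle 50% of genes lay between -0.23 and 0.19, and 90% lay between -0.63 and 0.50. At least 2-fold more footprints were listed for 68 genes (0.692% of all genes) and at least 2-fold fewer for 126 genes (1.28%). Past 1.5-fold, 333 genes (3.39%) were higher and 580 (5.9%) were lower. A value below 0 was listed for 5090 genes (51.8%). On the mRNA side of the same table, 78 genes were at least 2-fold higher and 63 at least 2-fold lower.

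The genes with the largest values had few footprints. A relative footprint level was formed for each gene from its mean normalized count in the authors' polysome table of the same cell line and its translational efficiency, which is footprints per mRNA. Genes were ordered by this level and cut into 10 equal groups. In the lowest group the standard deviation across genes was 0.604 on the log2 scale, and in the highest it was 0.235. The lowest 3 groups held 157 of the 194 genes past 2-fold (80.9%), and the upper 5 held 12 (6.19%). Values at low level were thus spread more widely in both directions, and whether counting error alone accounts for that spread was not tested.

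**Figure D1:**
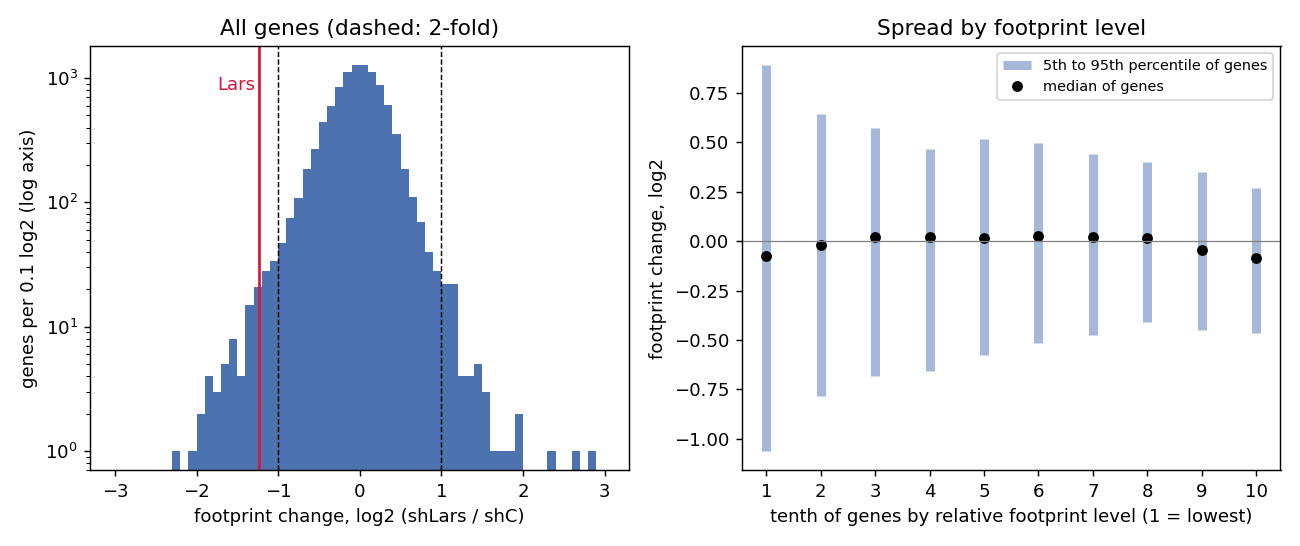
Left, number of genes in bins of 0.1 of footprint change, in log2 of shLars over shC, with a log count axis, dashed lines at 2-fold and the value of Lars in red. Right, median (point) and 5th to 95th percentile (bar) of the footprint change in 10 equal groups of genes ordered by relative footprint level; the bars narrow from the lowest group, where 97 genes passed 2-fold, to the highest, where 1 did.

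Lars itself had fewer footprints in the cells labelled shLars. Its footprint change in the authors' deposited table was -1.23, which is 2.35-fold lower, beside an mRNA change of -1.46. It was the 59th lowest of all 9830 genes. Among the 4915 genes in the upper part of the footprint level it was second lowest, after Fbxo2 (an F-box protein that binds glycoproteins), listed at -1.31 for footprints and -1.25 for mRNA in the authors' deposited table.

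The other cytosolic synthetases, which charge the remaining tRNAs, and their scaffold proteins stayed close to 0. All 25 listed genes were measured, 23 of them in the upper part of the footprint level, where values were spread less widely. Among all genes 3.39% passed 1.5-fold higher and 5.9% lower. Of the 24 synthetase genes without Lars none passed 1.5-fold in either direction, 13 were below 0 and the median was -0.02. They ran from -0.57 for Fars2, a mitochondrial enzyme that the list also held, to 0.47 for the scaffold protein Eef1e1 in the authors' deposited table. The lowest cytosolic enzyme besides Lars was the histidyl one, Hars, at -0.27 in the authors' deposited table. Iars and Vars, whose enzymes charge the other branched-chain amino acids isoleucine and valine, stood at 0.08 and -0.26 in the authors' deposited table. Footprints on Dars, the aspartyl enzyme, stood at 0.39 beside -0.18 for mRNA in the authors' deposited table. The 16 mitochondrial synthetases had a median of -0.14, with 1 gene past 1.5-fold higher and 0 lower, and the 9 in the upper part of the footprint level had a median of -0.04.

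Footprints on the genes of the amino acid response, the program run by GCN2, eIF2 and ATF4, did not lie on one side. Of 43 listed genes 37 were measured, their median was -0.05, 15 were above 0 and 22 below, 1 passed 1.5-fold higher and 4 lower, and 0 passed 2-fold. The central factor Atf4 stood at 0.06 for footprints and -0.03 for mRNA in the authors' deposited table. Its textbook targets Asns (asparagine synthetase) and Trib3 (a pseudokinase) stood at 0.12 and 0.11, and Chac1 (a glutathione-degrading enzyme) at -0.16, in the authors' deposited table. Eif2ak4, which encodes GCN2, stood at 0.25 for footprints and 0.21 for mRNA in the authors' deposited table.

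The members of that list with larger values lay on both sides. Ddit3, the stress transcription factor CHOP, was the highest at 0.92 for footprints and 0.24 for mRNA in the authors' deposited table. The transcription factor Cebpb was listed at -0.82 for footprints and -0.09 for mRNA in the authors' deposited table. The stress-inducible regulator Nupr1 had -0.77 and -0.32, and the mTORC1 inhibitor Ddit4 -0.65 and -0.32, in the authors' deposited table. The secreted glycoprotein Stc2 had the lowest footprint value, -0.96, beside an mRNA value of 1.04 in the authors' deposited table, with a polysome mean count of 16.5. Sesn2, which encodes the cytosolic leucine sensor Sestrin2, stood at 0.27 for footprints and 0.53 for mRNA in the authors' deposited table.

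Some members of this list carry, near the start of transcription, the letters of the element that C/EBP and ATF proteins are known to bind, searched here as TGATGNAA on both strands of RefSeq promoters (250 bases before to 50 after the start, assembly GRCm38.p6). Of the 33 members with a promoter sequence 8 held it (24.2%), against 193 of the 7993 measured genes with a promoter (2.41%) and 1304 of all 32851 promoter sequences (3.97%). The list was drawn up from textbook targets, so this share describes the choice of genes. The median footprint change was -0.24 over those 8 genes and -0.06 over the 193. The stretches of 4 genes are shown, because these letters are what the pathway's known regulators read. Each is written 5′ to 3′ on the gene's strand with the match in capitals.
Nupr1 (chr7:126625543-126625610, minus strand): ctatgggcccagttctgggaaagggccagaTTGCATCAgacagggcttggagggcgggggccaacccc
Slc7a11 (chr3:50443642-50443709, minus strand): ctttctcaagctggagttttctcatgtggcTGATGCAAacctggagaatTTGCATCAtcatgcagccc
Atf3 (chr1:191183406-191183473, minus strand): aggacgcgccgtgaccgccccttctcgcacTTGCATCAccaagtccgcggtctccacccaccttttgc
Chac1 (chr2:119351019-119351086, plus strand): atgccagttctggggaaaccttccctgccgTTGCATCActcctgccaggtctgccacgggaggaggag

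Slc7a11, the cystine carrier, holds the letters once on each strand, and the other 3 stretches hold them on the reverse strand. The 4 genes shown all had footprint values below 0. In the authors' deposited table Nupr1 stood at -0.77 for footprints, Slc7a11 at -0.55, Atf3 at -0.47 and Chac1 at -0.16. For mRNA the same 4 genes were listed at -0.32, -0.63, -0.05 and 0.27 in the authors' deposited table. The other 4 genes with the letters were Pycr1 at -0.32, Herpud1 at -0.12, Trib3 at 0.11 and Asns at 0.12 in the authors' deposited table, so the 8 genes lay on both sides of 0. A match of letters does not show that a factor was bound.

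**Figure D2:**
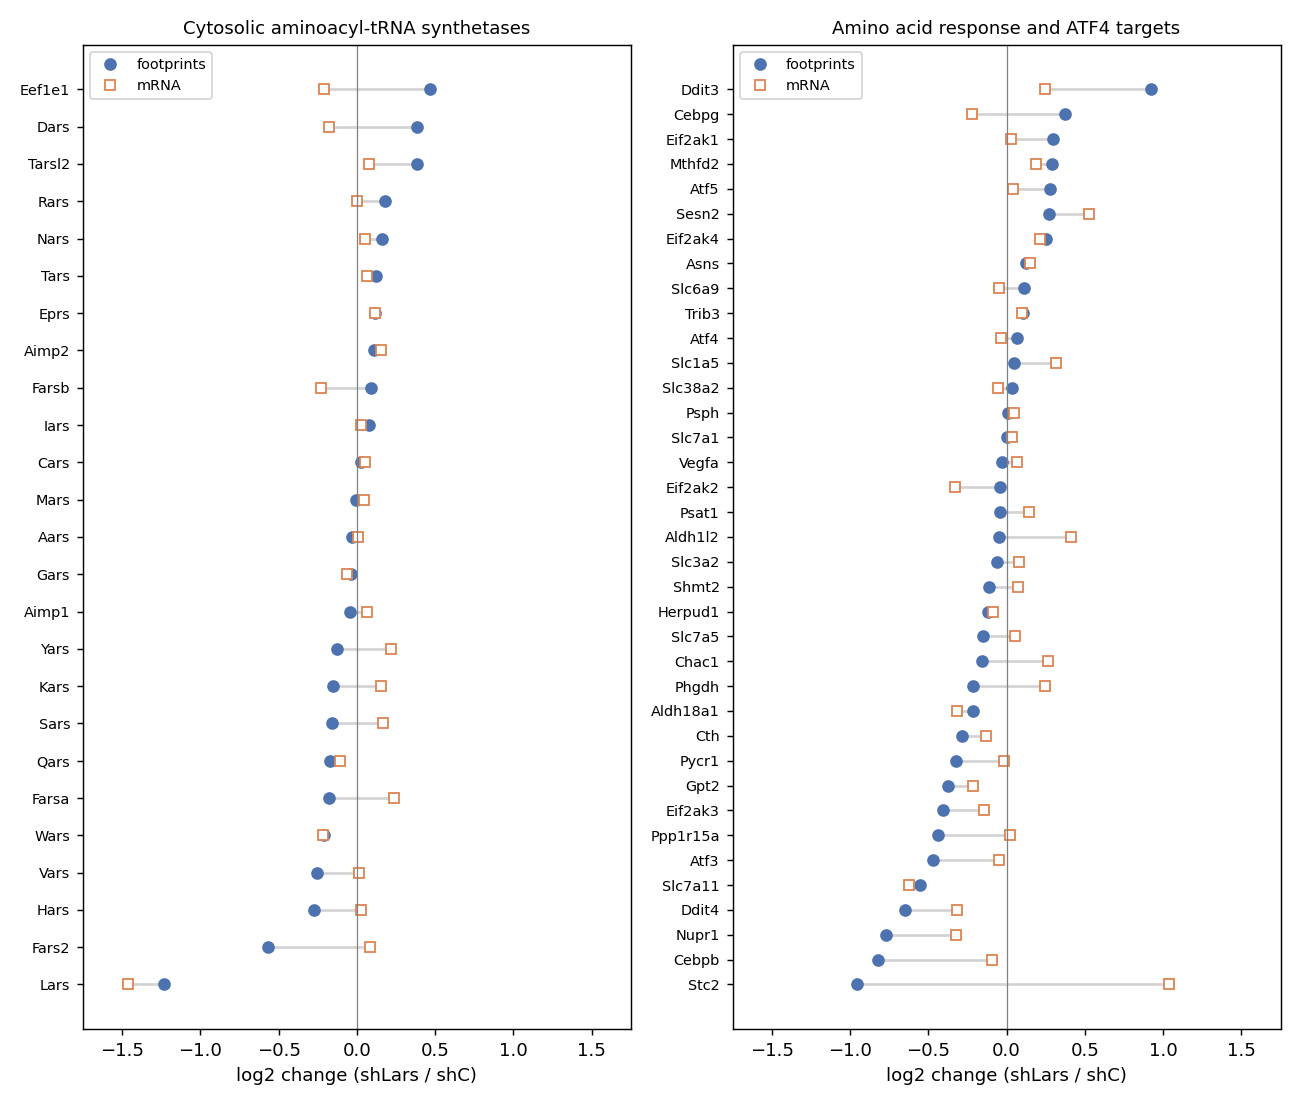
Log2 change, shLars over shC, of footprints (filled circles) and mRNA (open squares) for each measured cytosolic aminoacyl-tRNA synthetase gene (left) and each measured amino acid response gene (right). Lars stands apart from the other 24 synthetase genes at -1.23, and the response genes run from -0.96 for Stc2 to 0.92 for Ddit3.

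Genes of leucine sensing and mTORC1 had a median of 0.02 over the 36 of 42 measured, with 0 past 1.5-fold higher and 1 lower. That gene was Nprl2, a subunit of the complex that holds mTORC1 off when amino acids are short, at -0.73 for footprints and -0.48 for mRNA in the authors' deposited table. Rragc, one of the GTPases that bring mTORC1 to the lysosome, had the highest footprint value, 0.58, beside 0.11 for mRNA in the authors' deposited table. Mios, a subunit of the complex that keeps Nprl2's complex in check, stood at 0.46, and Flcn, which acts on the same GTPases, at 0.47, in the authors' deposited table. The kinase gene Mtor stood at -0.16 and its partner Rptor at 0.30 in the authors' deposited table.

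Amino acid carriers had a median of 0.05 over the 23 of 36 measured. Slc7a5 and Slc3a2, which together import leucine, stood at -0.15 and -0.06 in the authors' deposited table. Slc43a2, another carrier of large neutral amino acids, was the highest at 0.66, beside an mRNA value of -0.02 in the authors' deposited table. The lowest carriers, Slc7a7 and Slc7a11, stood at -0.61 and -0.55 for footprints and -0.65 and -0.63 for mRNA in the authors' deposited table. In the breakdown of leucine, isoleucine and valine, 24 genes had a median of -0.09, and Ppm1k, the phosphatase that activates the branched-chain keto acid dehydrogenase, stood at -1.55 for footprints and -1.58 for mRNA in the authors' deposited table, at a polysome mean count of 63.8.

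Among genes with a polysome mean count of at least 100, of which there were 9143, the 15 highest footprint values ran from 1.18 to 2.66. This minimum is on polysome counts and not on footprints. Stk40, a gene of the serine/threonine kinase family (chr4:126103942-126141029), was listed 6.31-fold higher in footprints (2.66), beside an mRNA change of 0.52 in the authors' deposited table. Its relative footprint level, 5.50, lay in the lowest of the 10 groups, which ended at 6.93. Il24, a cytokine of the interleukin-10 family (chr1:130882074-130887411), stood at 1.91 for footprints and 0.39 for mRNA in the authors' deposited table. Lcn2, the siderophore-binding protein lipocalin 2 (chr2:32384637-32387739), stood at 1.41 for footprints and 1.11 for mRNA in the authors' deposited table. Bbc3, the cell death protein PUMA (chr7:16308398-16318334), stood at 1.18 for footprints and -0.11 for mRNA in the authors' deposited table, and Ptbp2, a splicing regulator (chr3:119718741-119784647), at 1.21 and 0.56.

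The rest of the high group spans unlike functions. Immp1l, Lat2, Depdc1a, Zfp764, Etohi1 and Acoxl also lay in the lowest of the 10 groups by footprint level. Immp1l, a subunit of the mitochondrial inner membrane peptidase, stood at 1.53, the immune receptor adaptor Lat2 at 1.43 and the chloride channel Clcn2 at 1.30 in the authors' deposited table. Depdc1a, known from mitosis, stood at 1.34, and Sh3gl3, an endophilin of membrane traffic, at 1.30, in the authors' deposited table. The zinc finger gene Zfp764 stood at 1.42 and Etohi1 at 1.35 in the authors' deposited table. Acoxl, an acyl-CoA oxidase-like gene, stood at 1.54 in the authors' deposited table, and its annotated span overlaps Bcl2l11. Pcdhgb1, a protocadherin that shares its last exons with the other genes of its cluster, stood at 1.72 for footprints and 1.04 for mRNA in the authors' deposited table, so which cluster member the reads came from is uncertain. Of these 15 genes, 13 had an mRNA value above 0, where the median mRNA change over all genes was -0.0008.

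The 15 lowest values under the same minimum ran from -1.77 to -1.33. Map3k15, a stress kinase gene, was listed lowest at -1.77 for footprints and 0.25 for mRNA in the authors' deposited table. Its relative footprint level, 4.51, lay in the lowest of the 10 groups, as did those of Mob3c and Atxn1. The span of Map3k15 overlaps Pdha1, a pyruvate dehydrogenase subunit gene, so its value is uncertain. Cox16, an assembly factor of cytochrome c oxidase (chr12:81358852-81485137), stood at -1.61 for footprints and -0.11 for mRNA in the authors' deposited table. Ppp1r14b, an inhibitor of protein phosphatase 1 (chr19:6975048-6977324), stood at -1.52 for footprints and 0.25 for mRNA in the authors' deposited table. Hr, a corepressor of nuclear receptors (chr14:70554056-70573548), stood at -1.39 for footprints and -0.48 for mRNA in the authors' deposited table.

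Rgs14, a regulator of G protein signaling, and Rhoj, a small GTPase, were low on both sides, at -1.52 and -1.38 for footprints and -0.90 and -1.05 for mRNA in the authors' deposited table. Rangrf, which binds the GTPase Ran, stood at -1.61 for footprints and 0.48 for mRNA in the authors' deposited table, and the autophagy gene Atg9b at -1.51 and -0.07. The remaining low genes were Ccdc163 at -1.50, the kinase adaptor Mob3c at -1.46, the zinc finger gene Zfp688 at -1.38 and the ataxin gene Atxn1 at -1.36 in the authors' deposited table. Below them stood the transcription factor gene Mypop at -1.34, the glutamate receptor gene Grid1 at -1.34 and Inafm2 at -1.33 in the authors' deposited table. Of these 15 genes, 9 had an mRNA value below 0, where the median mRNA change over all genes was -0.0008. Counting both ends, 11 of the 30 genes overlap another annotated gene, and the share of all genes that do so was not counted. These are Map3k15, Cox16, Rangrf, Atg9b, Ccdc163, Grid1, Pcdhgb1, Acoxl, Zfp764, Sh3gl3 and Clcn2. The part of overlapping genes in their values was not tested. By footprint level 22 of the 30 lay in the lowest 3 of the 10 groups, and 3 (Pcdhgb1, Lcn2 and Ptbp2) in the upper 5. None of the 30 had an adjusted p under 0.05 in the authors' xtail test of efficiency, where their adjusted p ran from 0.66 to 0.98.

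**Figure D3:**
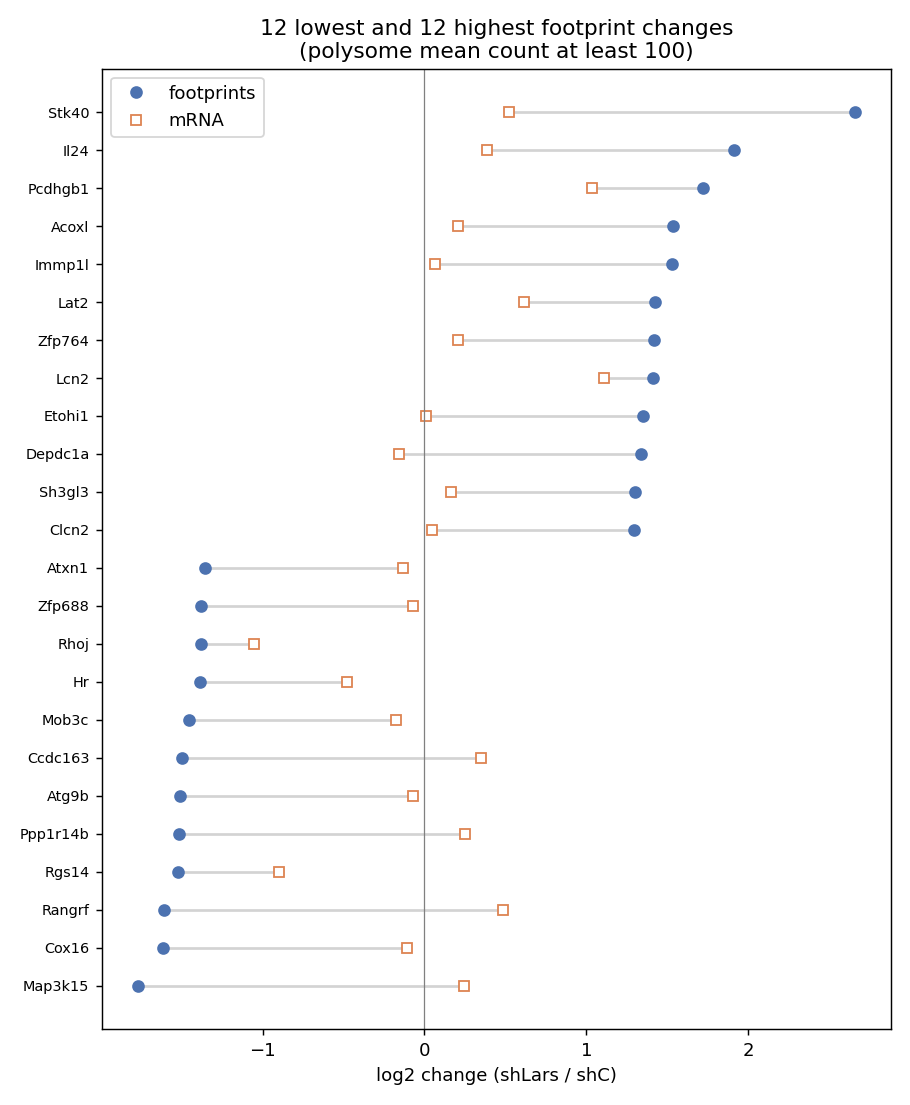
Log2 change, shLars over shC, of footprints (filled circles) and mRNA (open squares) for the 12 highest and 12 lowest genes by footprint change among those with a polysome mean count of at least 100. The mRNA value is nearer 0 than the footprint value for each of the 24 genes, which were chosen by the footprint value.

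With no minimum on the count, the lowest genes of all were Col6a2, a collagen VI chain, at -2.20, the homeobox gene Isl2 at -2.06, the cytokine gene Ctf1 at -1.94, the immediate early gene Egr2 at -1.94 and the adhesion gene Bcam at -1.86 in the authors' deposited table. The highest were Dlc1, a GTPase-activating protein, at 2.81, Stk40 at 2.66, the collagen prolyl hydroxylase P4ha3 at 2.30, the placental hormone gene Prl3d2 at 1.96 and Il24 at 1.91 in the authors' deposited table. For P4ha3 the mRNA stood at 1.83, and for Bcam, where the sign differed, at 0.75, in the authors' deposited table.

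Genes with many footprints gave smaller values, and these were looked at separately after the data had been seen. In the upper part of the footprint level 6 genes were at least 2-fold higher and 6 at least 2-fold lower. On the high side stood the chemokine Ccl2 (chr11:82035577-82037452) at 1.11 for footprints and 0.78 for mRNA, and the pentraxin Ptx3 at 0.85 and 0.99, in the authors' deposited table. Adam8, a surface protease of leukocytes, stood at 0.95 for footprints and 2.52 for mRNA in the authors' deposited table. Ang2, a secreted ribonuclease gene, stood at 1.02 and the nonclassical class I gene H2-T23 at 0.86, beside 1.16 and 0.63 for mRNA, in the authors' deposited table.

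Other high genes with many footprints were the integrator subunit Ints7 at 1.01, the interferon-induced exonuclease Isg20 at 0.89, the iron carrier Slc11a2 at 0.83 and the lipoprotein receptor Scarb1 at 0.78 in the authors' deposited table. For mRNA these genes were listed, in the same order, at 0.70, 0.27, 0.61 and 0.69 in the authors' deposited table. On the low side stood Ptms (parathymosin) at -1.19 for footprints and -0.05 for mRNA, and the cytokine signaling inhibitor Socs1 at -1.04 and 0.07, in the authors' deposited table. The aldehyde dehydrogenase Aldh3a1 and the cyclin-dependent kinase subunit Cks1b were low on both sides, at -1.08 and -0.98 for footprints and -1.22 and -0.79 for mRNA, in the authors' deposited table. Elongin B (Tceb2) and the splicing protein Snrpd2 each stood at -0.91 for footprints, beside 0.31 and 0.34 for mRNA in the authors' deposited table.

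Gene lists were then set against all genes, each by its counts and its median. Of 49 lists, which held 1594 measured genes, 40 had a median within 0.15 of 0, 8 had a lower one and 1 a higher one. No member passed 2-fold in 33 lists, beside 1.97% of all genes past 2-fold. The list counts past 1.5-fold stand beside 3.39% of all genes higher and 5.9% lower. Over all measured members the lists with the lowest medians were collagens, histones, matrix glycoproteins, mesenchymal genes and glycolysis. The order depended on the minimum count. With a polysome mean of at least 10 histones were lowest (-0.53 over 23 genes). With at least 100 histones were lowest (-0.28 over 9 genes), then mesenchymal genes (-0.21), glycolysis (-0.20) and matrix glycoproteins (-0.19). Cytosolic ribosomal proteins (-0.18) and collagens (-0.18) came next. In the upper part of the footprint level collagens were lowest (-0.42 over 9 genes).

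**Figure D4:**
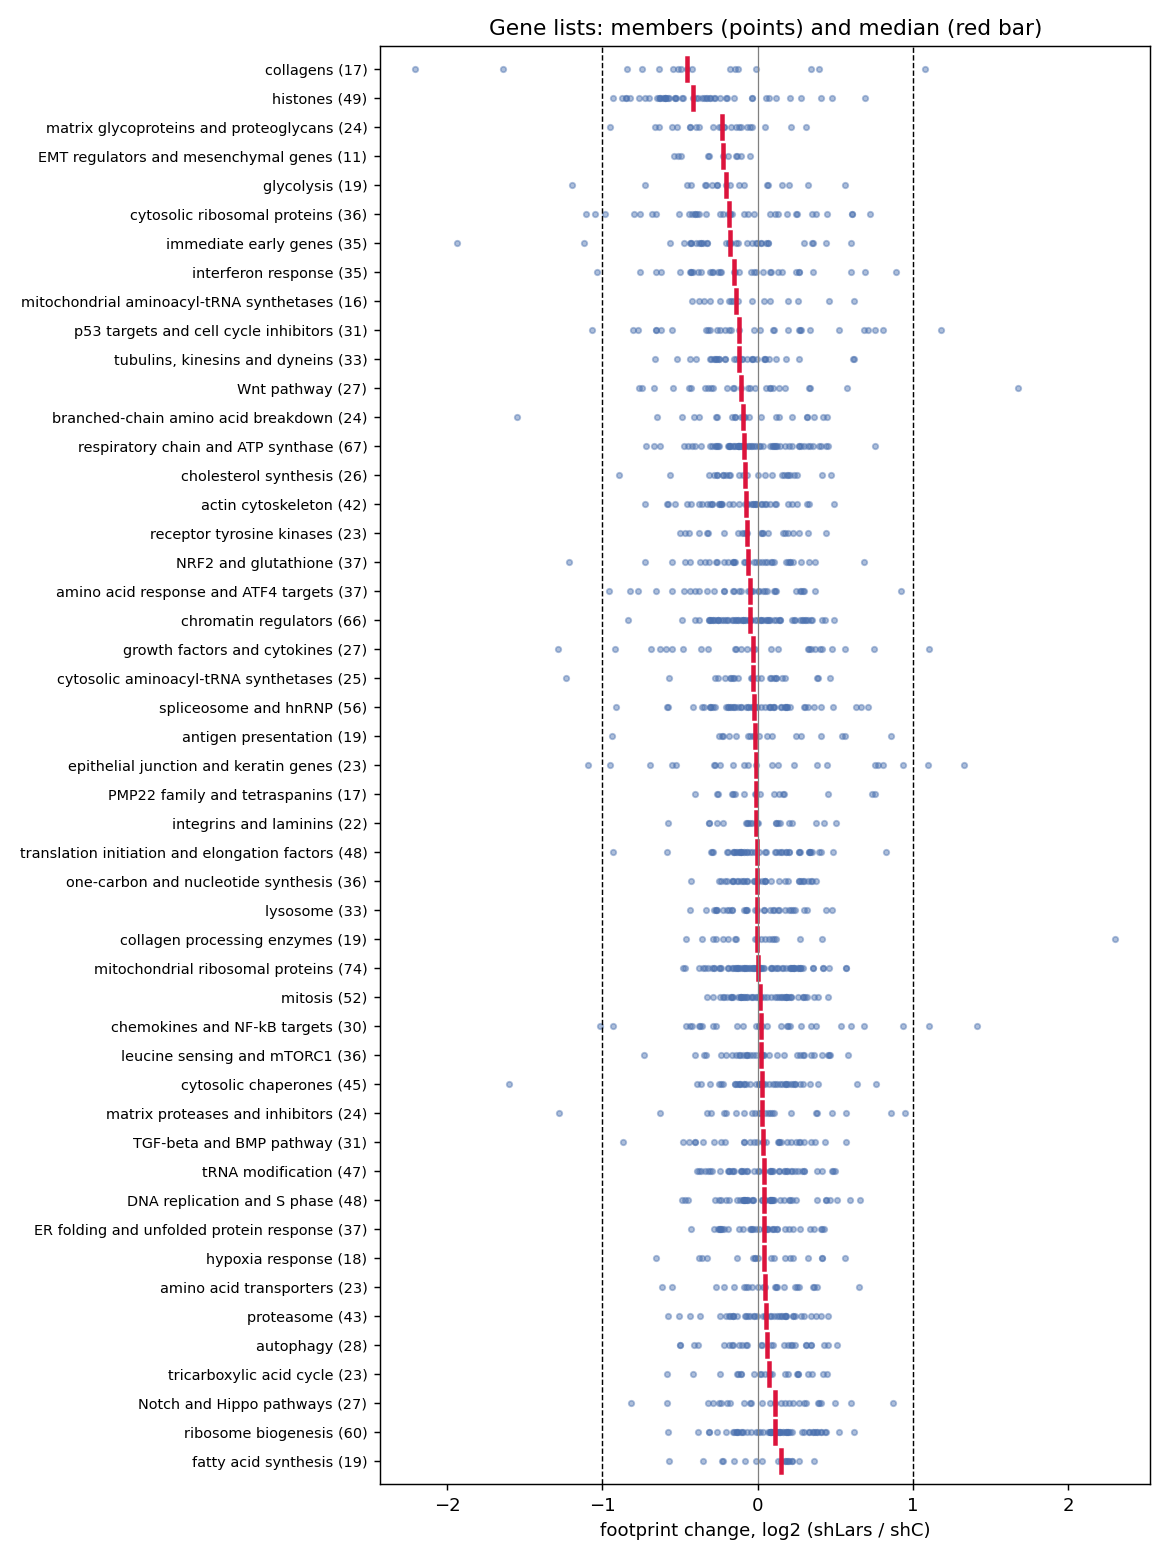
Footprint change, in log2 of shLars over shC, of each measured member (points) of the 49 gene lists, with the list median (red bar), dashed lines at 2-fold and the number measured in parentheses. List medians run from -0.45 for collagens to 0.15 for fatty acid synthesis.

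Collagens, the fibre and basement membrane proteins of the extracellular matrix, had a median of -0.45, beside 0.11 for their mRNA. Of 40 listed genes 17 were measured and 14 were below 0. Past 1.5-fold, 5 were lower and 1 was higher. The basement membrane chains Col4a1 and Col4a2 stood at -0.51 and -0.42 for footprints and at -0.03 and 0.09 for mRNA in the authors' deposited table. Col6a1, a microfibril chain, stood at -0.54 and the fibril chain Col5a1 at -0.49 in the authors' deposited table. The epithelial anchoring collagen Col17a1 was the highest at 1.08 for footprints and -0.33 for mRNA in the authors' deposited table, followed by the basement membrane chain Col4a6 at 0.39 and the anchoring fibril chain Col7a1 at 0.34. Over the 11 of the 17 with a polysome mean count of at least 100 the median was -0.18. Over the 9 in the upper part of the footprint level it was -0.42. Of 14 fibroblast markers 5 were measured, among them Col6a1 and Col6a2, and their median was -0.43; their part in these values was not tested.

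The enzymes that process collagen did not share the low median: over 19 measured genes it was 0.00. The collagen chaperone Serpinh1 stood at -0.22 and the hydroxylase subunit P4hb at -0.19 in the authors' deposited table. The other matrix glycoproteins and proteoglycans had a median of -0.23, with 21 of 24 measured genes below 0 and 3 past 1.5-fold lower. The insulin-like growth factor binding proteins Igfbp6 and Igfbp4 stood at -0.66 and -0.63 for footprints and -0.13 and -0.14 for mRNA in the authors' deposited table. Osteopontin (Spp1) stood at -0.55 for footprints and -0.47 for mRNA in the authors' deposited table. Thrombospondin 1 (Thbs1), a matrix protein that binds many receptors, was the highest at 0.31 for footprints and 0.62 for mRNA in the authors' deposited table.

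All 11 measured genes of the mesenchymal list, of 24 listed, were below 0, with a median of -0.22 and none past 1.5-fold. The intermediate filament gene Vim stood at -0.53 for footprints and 0.09 for mRNA in the authors' deposited table. The calcium-binding protein S100a4 stood at -0.49 for footprints and 0.50 for mRNA, and the receptor kinase Axl at -0.32 and -0.16, in the authors' deposited table. Fibronectin (Fn1), a member of this list and of the matrix list, stood at -0.05 in the authors' deposited table. Integrins and laminins, the cell's matrix receptors and their basement membrane ligands, had a median of -0.01 over 22 genes with none past 1.5-fold.

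The keratins and junction genes of epithelia spread widely in both directions. Of 46 listed genes 23 were measured, 6 passed 1.5-fold higher and 3 lower, and the median was -0.01. A polysome mean count of at least 100 was reached by 14 of the 23, and over the 5 in the upper part of the footprint level the median was -0.27. Footprints on Krt10, a keratin of differentiating epidermis, stood at 1.33 and on the epithelial splicing regulator Esrp2 at 0.94, beside -0.26 and -0.54 for mRNA, in the authors' deposited table. Krt10 did not reach a polysome mean count of 100. The simple epithelial keratins Krt8 and Krt18 stood at -0.28 and -0.55 for footprints and -0.24 and -0.38 for mRNA in the authors' deposited table. Of 16 luminal mammary markers 9 were measured, from -1.77 for Foxa1 to 0.01. Of these 9 markers 4 reached a polysome mean count of at least 100, and Foxa1 was not among them. Krt8 and Krt18 were among the 9, while Epcam has no line in the table. Whether the markers match the label of the line as a mammary carcinoma was not tested. Of 14 fibroblast markers 5 were measured (median -0.43), 3 of them at a polysome mean count of at least 100. Markers of basal cells (2 of 12, median -0.27), macrophages (3 of 14), endothelium (2 of 10), lymphocytes (1 of 10) and red cells (0 of 8) were fewer. Ptprc, Pecam1 and Cd3e have no line in the table.

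Histones, the proteins that package DNA, had a median of -0.41 beside -0.01 for mRNA. Of 49 measured genes 41 were below 0, 17 passed 1.5-fold lower and 1 higher, and 0 passed 2-fold. The 42 clustered histone genes, whose mRNAs mostly end without a poly(A) tail, had a median of -0.45 and polysome mean counts between 0.278 and 107. The RNA-Seq kit starts from poly(A) RNA, and the median control efficiency of these 42 genes was 3.03 on the log2 scale. The 7 other histone genes, variant and linker ones, had a median of -0.28. Among them the DNA damage histone H2afx stood at -0.73 for footprints and -0.13 for mRNA, and the linker histone H1f0 at -0.70 and -0.29, in the authors' deposited table.

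Cytosolic ribosomal proteins had a median of -0.18 beside 0.12 for mRNA, with 36 of 82 measured. Below 0 were 24 of the 36, and past 1.5-fold 7 were lower and 3 higher. Among the lowest were Rpl6 at -1.05 and Rpl37 at -0.98 in the authors' deposited table, and the highest Rps15a at 0.72, Rps2 at 0.61 and Rpl23 at 0.61. The large subunit's 18 genes had a median of -0.30 and the small subunit's 18 a median of -0.17. Their median control efficiencies, -3.86 and -3.82 on the log2 scale, lay far below that of the histones. These genes, like the clustered histones, have near-identical copies, and the table's own line for reads aligned to more than one place stood at -1.45 for footprints and 0.03 for mRNA. The values of both families are therefore uncertain, and the part that such reads play in them was not tested.

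The remaining translation genes lay near 0. Initiation and elongation factors split evenly, with 24 above 0 and 24 below, and a median of -0.01. Eef1g and Eef1a1, of the complex that delivers charged tRNA, stood at -0.93 and -0.58 for footprints and 0.03 and -0.05 for mRNA in the authors' deposited table. The part of reads aligned to more than one place was not tested for these genes either. Eif4ebp2, a repressor of cap-dependent initiation, stood at 0.83 for footprints and 0.36 for mRNA in the authors' deposited table. Mitochondrial ribosomal proteins were also split evenly, 37 above and 37 below, and tRNA modification enzymes had a median of 0.04 with 0 of 47 past 1.5-fold. Ribosome biogenesis factors stood slightly higher, with 42 of 60 above 0 and a median of 0.11, beside 0.11 for mRNA. Noc3l, which works on the large subunit precursor, stood at 0.62 and the snoRNP core protein Nop58 at 0.44 for footprints, beside -0.03 and 0.09 for mRNA, in the authors' deposited table.

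Targets of p53, the tumor suppressor that halts growth after damage, were scattered. Of 31 measured genes 5 passed 1.5-fold higher and 6 lower, and the median was -0.12, which became -0.07 with a polysome mean of at least 100 and -0.24 in the upper part of the footprint level. Trp53, which encodes p53, stood at 0.81 for footprints and 0.07 for mRNA in the authors' deposited table. The death receptor gene Fas stood at 0.69 for footprints and 0.76 for mRNA in the authors' deposited table. The junction gene Perp stood at 0.76 for footprints in the authors' deposited table. The p53 inhibitor Mdm4 stood at -1.06 for footprints and 0.09 for mRNA in the authors' deposited table. The cell cycle inhibitor Cdkn1a (p21) stood at -0.62 for footprints and -0.19 for mRNA in the authors' deposited table.

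Immediate early genes, which growth signals switch on within minutes, had a median of -0.18 beside 0.01 for mRNA, with 25 of 35 below 0, 2 past 1.5-fold lower and 1 higher. The transcription factors Egr2 and Egr3 stood at -1.94 and -1.12 for footprints and -0.73 and -1.20 for mRNA in the authors' deposited table. Egr2 had a polysome mean count of 21.8 and lay in the lowest of the 10 groups by footprint level. Junb and Fosl1, subunits of AP-1, stood at -0.43 and -0.38 in the authors' deposited table. Cyr61 and Ctgf, matrix-associated targets of the Hippo pathway, were higher, at 0.60 and 0.30 for footprints and 0.77 and 0.67 for mRNA, in the authors' deposited table.

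Chemokines and NF-kB targets had a median of 0.02, or 0.19 in the upper part of the footprint level, with 5 of 30 past 1.5-fold higher and 2 lower. Besides Lcn2 and Ccl2, complement C3 stood at 0.94 for footprints and 1.43 for mRNA, and the NF-kB subunit Relb at 0.69 and 0.38, in the authors' deposited table. The chemokine Ccl5 went the other way from its mRNA, at -1.01 and 0.81 in the authors' deposited table. Interferon response genes had a median of -0.15, or -0.09 with a polysome mean of at least 100, and 3 of 35 passed 1.5-fold higher and 4 lower. Among growth factors, the EGF receptor ligands Btc and Tgfa stood at -1.28 and -0.59 and Hbegf at 0.56 for footprints, beside -1.25, -0.58 and 0.40 for mRNA, in the authors' deposited table. The activin chain Inhba stood at 1.10 for footprints and 0.81 for mRNA, and the lymphatic growth factor Vegfc at 0.75 and 0.29, in the authors' deposited table.

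Glycolysis had a median of -0.20 beside 0.07 for mRNA, with 13 of 19 genes below 0 and 2 past 1.5-fold lower. Ldhb, a lactate dehydrogenase chain, was the lowest at -1.19 for footprints and 0.24 for mRNA in the authors' deposited table. Pyruvate kinase (Pkm) stood at -0.45, the aldolase Aldoa at -0.34 and Gapdh at -0.43 for footprints, beside 0.07, 0.09 and 0.25 for mRNA, in the authors' deposited table. The part that reads aligned to more than one place play in the glycolysis values was not tested. The regulatory enzyme gene Pfkfb4 was the highest at 0.56 in the authors' deposited table. Over all measured members fatty acid synthesis had the highest list median, 0.15 beside -0.07 for mRNA, with 12 of 19 above 0 and none past 1.5-fold. Its elongase Elovl1 stood at 0.36, acetyl-CoA carboxylase (Acaca) at 0.27 and the desaturase Scd1 at 0.22 in the authors' deposited table. On the lower side stood the desaturase Fads1 at -0.57, fatty acid synthase (Fasn) at -0.23 and the desaturase Scd2 at -0.22 in the authors' deposited table. The respiratory chain had a median of -0.09 and the tricarboxylic acid cycle one of 0.08.

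Several lists held no member past 1.5-fold, beside 3.39% of all genes higher and 5.9% lower. Of the proteasome, ER folding and mitosis genes, 42, 34 and 50 lay in the upper part of the footprint level, where values were spread less widely. All 43 proteasome genes were measured, with a median of 0.05 and a range from -0.58 to 0.46, inside 1.5-fold. Neither the 37 genes of ER folding and the unfolded protein response (median 0.04) nor the 52 of mitosis (0.01) had a member past 1.5-fold. Other lists of protein handling and cell division did have such members. DNA replication genes had a median of 0.04, with 2 of 48 past 1.5-fold higher, the replication origin gene Orc2 at 0.66 and the cyclin Ccne2 at 0.60 in the authors' deposited table. Cytosolic chaperones had a median of 0.03 and a wide range. Their lowest gene and the only one past 2-fold was Hspa2, an Hsp70 of the testis, at -1.60 for footprints and -0.76 for mRNA in the authors' deposited table, with a polysome mean count of 42.4. At the other end Hspa8, the constitutive Hsp70, and its partner Dnaja1 stood at 0.64 and 0.76 for footprints and -0.05 and -0.20 for mRNA in the authors' deposited table.

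The 5 genes that the authors' xtail test called in translational efficiency (0.0509% of all genes, adjusted p under 0.05) had footprint values near or below 0 and mRNA values well above it. Footprints ran from -1.64 for Col14a1 to 0.02 for the heat shock factor gene Hsf5 in the authors' deposited table, with the keratin Krt19 at -0.69, the ectonucleotidase Entpd3 at -0.43 and Col9a1 at -0.84. For mRNA they ran from 2.09 for Krt19 to 6.09 for Entpd3 in the authors' deposited table. All 5 had polysome mean counts between 2.98 and 40.0. In the same xtail test 624 of the 9830 genes had an unadjusted p under 0.05, a threshold that some genes pass without any change. Emp3, a small membrane glycoprotein of the PMP22 family, stood at -0.08 for footprints and 0.37 for mRNA in the authors' deposited table. Its relatives Pmp22 and Emp1 stood at 0.74 and -0.40 for footprints, beside 0.68 and -0.18 for mRNA, in the authors' deposited table, and Ggt5 has no line there.

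Short genes had slightly lower footprint values than long ones. In 5 equal groups of genes by the genomic span of the RefSeq gene, the median footprint change was -0.11 in the shortest (median span 4.95 kb), -0.04 at 13.1 kb, 0.00 at 24.5 kb, 0.06 at 46.0 kb and 0.01 at 114 kb. For mRNA the medians were 0.06, 0.01, -0.02, -0.02 and -0.02. Across the 9813 genes with a span, Spearman's rank correlation was 0.13 for footprints and -0.12 for mRNA, and across the 4910 of these in the upper part of the footprint level 0.23 and -0.17. These are descriptions across genes, which share the same libraries. The part of gene span in the medians of the histone, ribosomal protein and glycolysis lists was not tested.

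**Figure D5:**
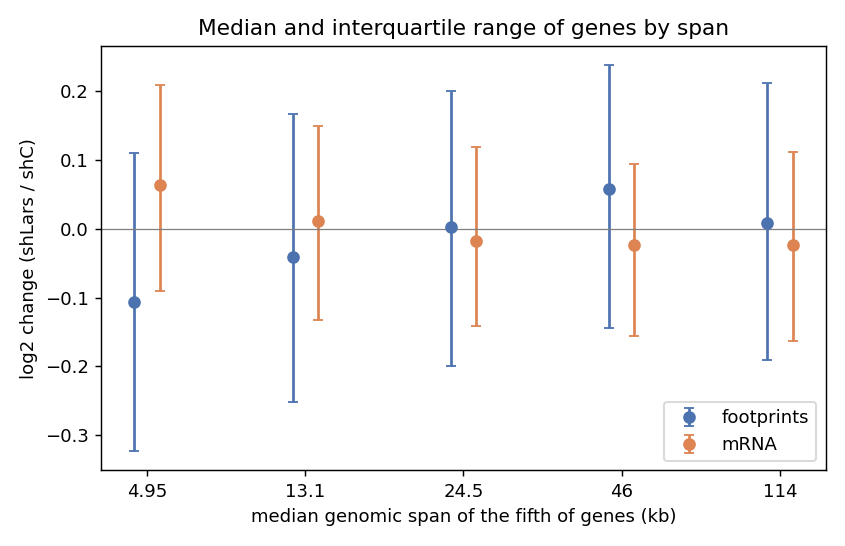
Median (points) and interquartile range (bars) of the log2 change, shLars over shC, in 5 equal groups of genes ordered by genomic span, for footprints and mRNA, with the median span of each group on the horizontal axis in kb. Footprint medians go from -0.11 in the shortest group to 0.06 in the fourth, and mRNA medians from 0.06 to -0.02.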

How the data were processed

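Footprint libraries followed a published ribosome profiling protocol and RNA-Seq libraries the TruSeq RNA kit v2, which does not mark strand, per the labels' protocols. The build mm10 and, with no role for each, the tools DESeq2, HTSeq, STAR 2.5.2a, featureCounts, Bowtie2 2.4.1 and SAMtools stand in the submitters' processing notes. The deposited xtail table gives log2 changes of footprints, mRNA and efficiency, log2 efficiencies per condition, and p-values for efficiency only, per the file headers. Its direction was checked: footprint minus mRNA change equals the shLars minus the shC efficiency within 7.3e-05. Abundance came from the deposited polysome table's mean normalized signal (counts divided by size factors).

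Left out were 18 date symbols and 3 read-accounting lines. With no library columns, nothing was tested: genes past 2-fold and 1.5-fold and list medians were counted with Python 3.11.15, numpy 2.4.6, pandas 2.3.3 and matplotlib 3.10.9, on scripts tested on simulated data. The relative footprint level is log2 of that polysome mean plus the mean log2 efficiency of both conditions. Named genes were the 15 highest and 15 lowest with a polysome mean of at least 100 and an assigned symbol, the 5 highest and lowest of all, Lars, Emp3 and Ggt5, genes called in efficiency, and up to 3 list members per direction or those a sentence needed. The members and lists were chosen with earlier results of these data known. Coordinates and promoters are RefSeq, GRCm38.p6, matched by symbol (9813 genes with coordinates, 7993 with promoters). The pooled footprint library was in no group. A few genes that the rule covers are not reported here.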

Additional observations from a re-analysis of the deposited data

How the results depend on the processing

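In footprints 68 genes were at least 2-fold higher and 126 at least 2-fold lower. Requiring a polysome mean count of at least 100 kept 9143 of the 9830 genes and left 37 and 70. Keeping only the 4915 genes of highest footprint level, a setting chosen after seeing the data, left 6 and 6. That setting removed the genes of low level, whose values were spread more widely. A threshold of 1.5-fold gave 333 and 580 and one of 4-fold gave 3 and 2. A minimum of 10 (67 and 123), centring on the median of all genes (70 and 122) and keeping the date symbols (69 and 126) moved these counts by less than 1.5 times. Of the 49 list medians 31 were below 0, and 29, 30 and 24 were so with a minimum of 100, with one of 10 and after centring. No median of at least 0.1 in size changed sign under these 3 settings. Among the genes of highest footprint level 33 were below 0, and the median of the Notch and Hippo list went from 0.11 to -0.0509 over 11 members; the cause was not tested.

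No paired analysis was possible because the table carries no column per library, and for the same reason no library was left out in turn. The planned comparison by the leucine share of each protein was not run, since protein sequences were not used here. The depth of the footprint libraries is unknown, and no interval is given for any footprint value.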
